A study of Bos taurus with 14 samples.

Results

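A set of 6 genes that act upstream of mTOR complex 1 (mTORC1) at the lysosome was followed through embryonic genome activation (EGA) in bovine embryos: SLC38A9 (ENSBTAG00000033313), SESN2 (ENSBTAG00000002363), MIOS (ENSBTAG00000013781), LAMTOR4 (ENSBTAG00000015009), RRAGB (ENSBTAG00000012980) and RRAGD (ENSBTAG00000018438). They were selected by Ensembl ID and are 6 of the 27607 genes in the count table. All 6 belong to the mTOR pathway genes that the study called between Day-4 groups on these same libraries, in a cluster ordered DRY over LACT over IVC. The order of the Day-4 groups was therefore fixed by the selection, and all values between Day-4 groups are given as a description, without a test. Day 2 took no part in those contrasts, and the test reported here is the mean of the Day-4 groups against Day 2.

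mTORC1 is a protein kinase complex that switches cells between growth and recycling, and it is active when it is held on the lysosomal surface. Amino acids bring it there through the Rag GTPases, small G proteins that work as pairs of RagA or RagB with RagC or RagD, and that are anchored to the lysosome by the Ragulator complex. Inside the lysosome SLC38A9 reads arginine, while in the cytosol sestrins read leucine and hold back GATOR2, which itself holds back GATOR1, the complex that turns RagA and RagB off. In early embryos such transcripts can be stored by the oocyte, transcribed anew at EGA, or both.

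All embryos were produced in vitro (IVP) from abattoir oocytes with semen of 1 bull. Each library came from a pool of 5 embryos. In all, 5 libraries held Day-2 embryos, labelled as 4-cell, and the other 9 held Day-4 embryos at the 16-cell stage. Of these, 3 came from in vitro culture (IVC, titled IVP in the labels), 3 from the oviduct of nonlactating cows (DRY) and 3 from that of lactating cows (LACT). The cows were primiparous Holstein-Friesians. DRY cows were dried off at calving and LACT cows were milked, so the oviduct groups differ in the metabolic state of the dam, and IVC embryos remained in synthetic oviduct fluid. The study used 3 cows per oviduct group, and each oviduct pool came from a single cow, so embryo pool and dam are not separable there. Whether the Day-2 and IVC pools came from separate cultures is not given in the sources used here, and the p-values then measure only the spread between these pools, which may be technical. The cell type labels could not be checked against marker genes, because no table used here pairs marker symbols with Ensembl IDs.

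The total count ranged from 22711367 to 40357379 reads per library. Levels are given as CPM, the share of a library's reads that fall on a gene, after TMM scaling over the 14 libraries, and 3 counts, the least taken as detected, correspond to 0.0645 to 0.145 CPM. This limit covers counting error only. A CPM is a share of the reads of a library, so a gene's own transcripts and the size of the RNA pool around them both set it, and in pooled embryos fewer expressing cells and less RNA per cell cannot be told apart. In each Day-4 group 1 library lay close to the mean of the others: IVC replicate 1, DRY replicate 3 and LACT replicate 3 were the middle library for 97.5% to 98.6% of the genes that averaged 5 CPM or more in the group, against 0.557% to 1.66% for the other 6 Day-4 libraries. They were within 5% of the mean of the others for 83.2% to 97.1% of these genes, against 6.25% to 7.83% for the other 6. Whether they are independent of the other libraries in their group is not known. If they are not, SDs with n = 3, and standard errors and FDRs with 14 libraries, are too small. For the genes described here, 16 of the 18 values in these libraries lay between the other libraries of the group, and 12 were within 5% of their mean. Tests of the Day-4 mean against Day 2 are therefore given with all 14 libraries and with 11, without these 3, except for RRAGB.

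Between Day 2 and Day 4 the 6 genes did not move as 1 group. SLC38A9, SESN2, MIOS and RRAGD fell. RRAGB was under the limit of 3 counts in every Day-2 library and above it in every Day-4 library. LAMTOR4 did not pass the test, in which Day-4 groups above and below Day 2 were averaged. With 14 libraries, 4 of the 6 genes were lower on Day 4 at an FDR under 0.05, against 33% of the 13390 genes tested, and 1 of 6 was higher, against 30.9% (edgeR's quasi-likelihood test, mean of the 3 Day-4 groups against Day 2, with Benjamini-Hochberg adjustment over all genes tested). With 11 libraries the counts were again 4 lower and 1 higher, against 29.5% and 25.7% of 12657 genes. All 6 genes passed the filter on low counts. RRAGB did so through Day-4 libraries alone, 8 of which were at or above 1 CPM. A difference was thus built into the filter for RRAGB, the 1 gene called higher. Its choice on Day-4 contrasts also needed reads on Day 4, and nothing is read from its count or its FDR in any fit.

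**Figure D1:**
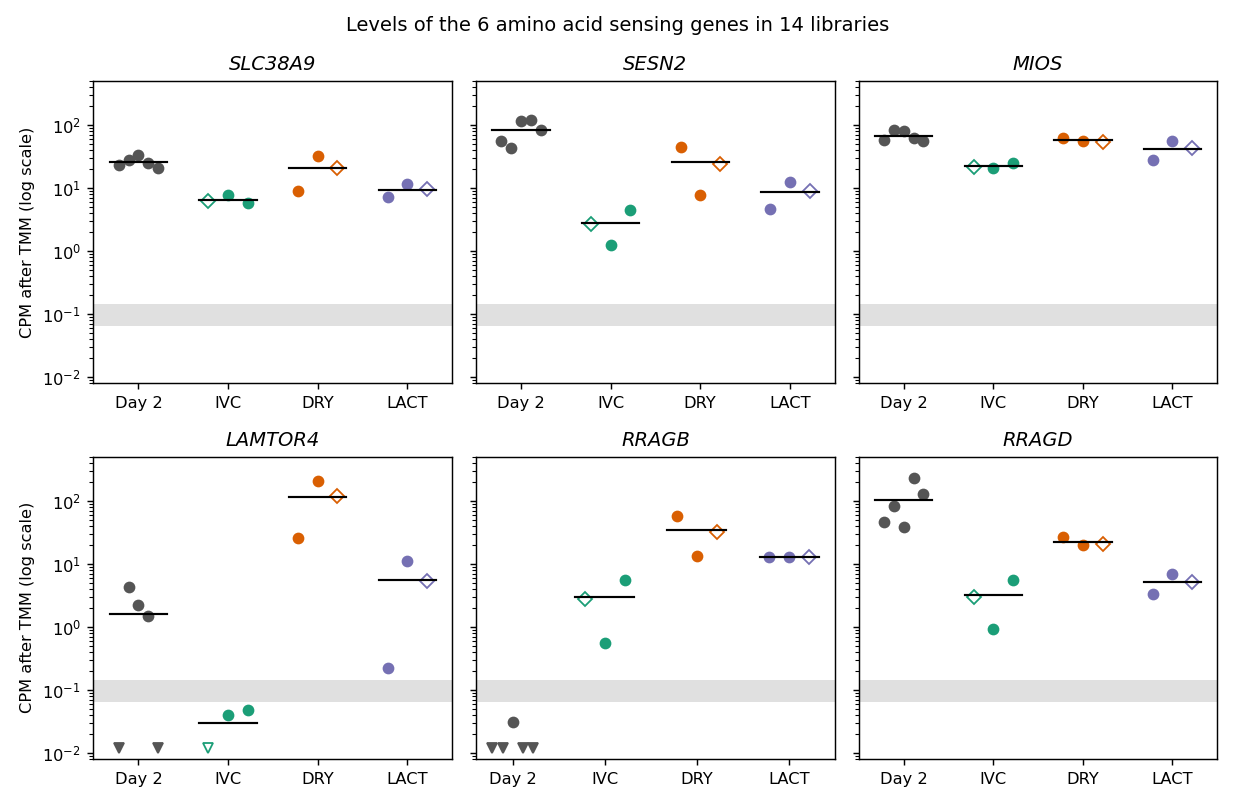
Level of each gene in every library, as CPM after TMM on a log axis, with the group mean as a line; open diamonds are IVC replicate 1, DRY replicate 3 and LACT replicate 3, triangles at the foot are libraries with 0 counts, and the grey band is the level of 3 counts. SLC38A9, SESN2, MIOS and RRAGD have their highest mean on Day 2, whereas LAMTOR4 and RRAGB have it in DRY.

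SLC38A9 is an amino acid transporter of the lysosomal membrane that signals the arginine content of the lumen to Ragulator. On Day 2 its level was 23.3, 27.6, 33.6, 25.1 and 20.7 CPM in replicates 1 to 5. On Day 4 it was 6.25, 7.72 and 5.70 CPM in IVC, 8.84, 32.7 and 20.6 CPM in DRY, and 7.20, 11.6 and 9.61 CPM in LACT. Every IVC and LACT library was below every Day-2 library, whereas the DRY libraries reached from the LACT range to near the highest Day-2 library. From Day 2 to Day 4 SLC38A9 fell by 1.26 on the log2 scale, which is 2.40-fold (standard error 0.34, FDR 0.00515, edgeR's quasi-likelihood test). Without the 3 middle libraries the FDR was 0.0493, just under the threshold.

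The mean of SLC38A9 was 26.1 ± 4.91 CPM on Day 2 (SD, n = 5), 20.7 ± 11.9 CPM in DRY, 9.46 ± 2.19 CPM in LACT and 6.56 ± 1.05 CPM in IVC (SD, n = 3 each). DRY thus held 79.3% of the Day-2 mean, LACT 36.2% and IVC 25.1%. Each pair of neighbours in this order overlapped: Day 2 with DRY, DRY with LACT, and LACT with IVC. Within Day 4 only the DRY and IVC libraries were apart.

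SESN2 encodes sestrin 2, a leucine-binding inhibitor of GATOR2 that is also induced by stress. On Day 2 its level was 55.5, 43.9, 117, 119 and 84.9 CPM. On Day 4 it was 2.65, 1.24 and 4.49 CPM in IVC, 45.0, 7.83 and 24.01 CPM in DRY, and 4.64, 12.6 and 8.94 CPM in LACT. Only DRY replicate 1 reached the lowest Day-2 library, and DRY replicate 2 lay within the LACT range. SESN2 fell by 3.30 on the log2 scale from Day 2 to Day 4, or 9.84-fold (standard error 0.43, FDR 1.23e-05, edgeR's quasi-likelihood test), and by 3.27 with 11 libraries (FDR 0.000504).

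The mean of SESN2 went from 84.2 ± 34.5 CPM on Day 2 (SD, n = 5) to 25.6 ± 18.6 CPM in DRY, 8.72 ± 3.98 CPM in LACT and 2.79 ± 1.63 CPM in IVC (SD, n = 3 each). These means are 30.4%, 10.4% and 3.32% of the Day-2 mean. The LACT and IVC libraries did not overlap, though the lowest LACT library, 4.64 CPM, was close to the highest IVC library.

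MIOS encodes a subunit of GATOR2, the complex that keeps GATOR1 from switching the Rag GTPases off. Its level on Day 2 was 58.7, 82.7, 79.8, 63.0 and 56.4 CPM. On Day 4 it was 21.6, 21.0 and 24.7 CPM in IVC, 62.5, 56.5 and 53.3 CPM in DRY, and 27.5, 55.8 and 42.9 CPM in LACT. MIOS had the smallest spread between replicates of the 6 genes in the fit. The highest and lowest library differed 1.47-fold on Day 2, 1.17-fold in IVC and 1.17-fold in DRY, but 2.03-fold in LACT. It fell by 0.85 on the log2 scale from Day 2 to Day 4, or 1.80-fold (standard error 0.21, FDR 0.00295, edgeR's quasi-likelihood test). With 11 libraries the FDR was 0.0398.

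In DRY the mean of MIOS was 57.4 ± 4.67 CPM (SD, n = 3), 84.3% of the Day-2 mean of 68.1 ± 12.3 CPM (SD, n = 5), and the ranges overlapped. LACT held 61.7% of it and IVC 32.9%. The DRY and LACT ranges met through LACT replicate 2, at 55.8 CPM, and DRY replicate 3, at 53.3 CPM, and without the 3 middle libraries they were apart. Every LACT library was above every IVC library.

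LAMTOR4 is 1 of the 5 subunits of Ragulator, the scaffold that holds the Rag GTPases on the lysosome. It had the most uneven values of the 6 genes. On Day 2 the reads counted were 0, 133, 72, 41 and 0, or 0 to 4.21 CPM. In IVC they were 0, 1 and 1, all under the limit of 3 counts. In DRY 666, 7563 and 3291 reads were counted, or 25.4, 203 and 119 CPM, and in LACT 5, 333 and 120 reads, or 0.221, 10.98 and 5.31 CPM.

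Every DRY library was thus above every other library for LAMTOR4, the LACT range enclosed that of the Day-2 libraries with reads, and IVC was at or below the limit. The mean was 116 ± 89.1 CPM in DRY and 5.503 ± 5.38 CPM in LACT (SD, n = 3 each) and 1.58 ± 1.76 CPM on Day 2 (SD, n = 5). Against 3 counts per IVC library, the mean was at least 908-fold higher in DRY, at least 43.0-fold higher in LACT and at least 12.4-fold higher on Day 2. These bounds rest in part on single libraries: they were 566-fold without DRY replicate 2, 21.6-fold without LACT replicate 2 and 7.26-fold without Day-2 replicate 2. Averaged over the Day-4 groups, the log2 difference from Day 2 was 0.80 with a standard error of 1.39 (FDR 0.628, edgeR's quasi-likelihood test), and 0.997 with 11 libraries (FDR 0.592). This average takes in IVC, at 0, 1 and 1 reads, so its size depends on the prior count. It joins groups above and below Day 2, so not passing is not read as no change. Taken singly, the fitted log2 differences from Day 2 were 6.196 in DRY and 1.80 in LACT (standard errors 1.495 and 1.32), whereas that of IVC depends on the prior count.

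RRAGB encodes RagB, a GTPase that binds mTORC1 in its GTP form. On Day 2 a single read was counted in replicate 3 and 0 in the other 4 libraries. On Day 4 the level was 2.73, 0.560 and 5.60 CPM in IVC, 57.9, 13.05 and 31.9 CPM in DRY, and 12.9 CPM in each LACT library. Every Day-4 library was above every Day-2 library, and the Day-4 groups did not overlap, although DRY replicate 2 was close to LACT. Against 3 counts per Day-2 library, the group mean was at least 32.8-fold higher in IVC, at least 143-fold higher in LACT and at least 379-fold higher in DRY, and over the Day-4 groups, weighted equally, at least 185-fold higher. Without IVC replicate 3 the bound for IVC was 18.2-fold, and without DRY replicate 1 that for DRY was 249-fold. The lowest Day-4 library, IVC replicate 2, was 6.198-fold above the mean level of 3 counts on Day 2. In the fit with no filter on low counts, which every gene with a read entered, the FDR of RRAGB was 4.70e-07 (edgeR's quasi-likelihood test). A call between Day-4 groups, by which RRAGB was chosen, already needed reads on Day 4, so nothing is read from this FDR either.

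The 3 LACT libraries were closer together for RRAGB, at 12.9 ± 0.0359 CPM (SD, n = 3), than those of the other Day-4 groups, since the highest and lowest IVC libraries differed 9.998-fold and those of DRY 4.44-fold. LACT replicate 3 is the middle library, so this closeness rests on replicates 1 and 2, at 12.91 and 12.86 CPM. RRAGB has a close paralog, RRAGA, and the counting settings for reads that match both are not given in the sources used here, so its counts are uncertain to that extent. The same holds for RRAGD and its paralog RRAGC.

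RRAGD encodes RagD, a partner of RagA and RagB. It showed the opposite time course to RRAGB. On Day 2 its level was 46.5, 82.7, 37.7, 227 and 128 CPM. On Day 4 it was 2.97, 0.920 and 5.60 CPM in IVC, 26.8, 19.7 and 20.7 CPM in DRY, and 3.27, 6.82 and 5.18 CPM in LACT. Every Day-2 library was above every Day-4 library, every DRY library was above every IVC and LACT library, and LACT and IVC overlapped. RRAGD fell by 3.88 on the log2 scale, or 14.7-fold (standard error 0.46, FDR 4.76e-06, edgeR's quasi-likelihood test), and by 3.84 with 11 libraries (FDR 0.000244). DRY held 21.4% of the Day-2 mean of 104 ± 77.4 CPM (SD, n = 5), LACT 4.87% and IVC 3.03%.

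The ratio of RRAGB to RRAGD reads was higher on Day 4 than on Day 2. A difference was built in for RRAGB, which passed the filter through Day-4 libraries alone, so nothing is read from this rise. For each RRAGD read, 0 to 0.000829 RRAGB reads were counted in the Day-2 libraries, which held 1208 to 6360 reads of both genes together. On Day 4 the ratio was 0.920, 0.609 and 1 in IVC, 2.17, 0.662 and 1.54 in DRY, and 3.95, 1.88 and 2.50 in LACT. The ratio is of reads and not per length, so only its change between libraries is described. All Day-4 libraries were above all Day-2 libraries, and all LACT libraries were above all IVC libraries, whereas DRY overlapped with both. The order of the Day-4 groups for the ratio, LACT highest, differs from that of either gene alone and was not tested.

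**Figure D2:**
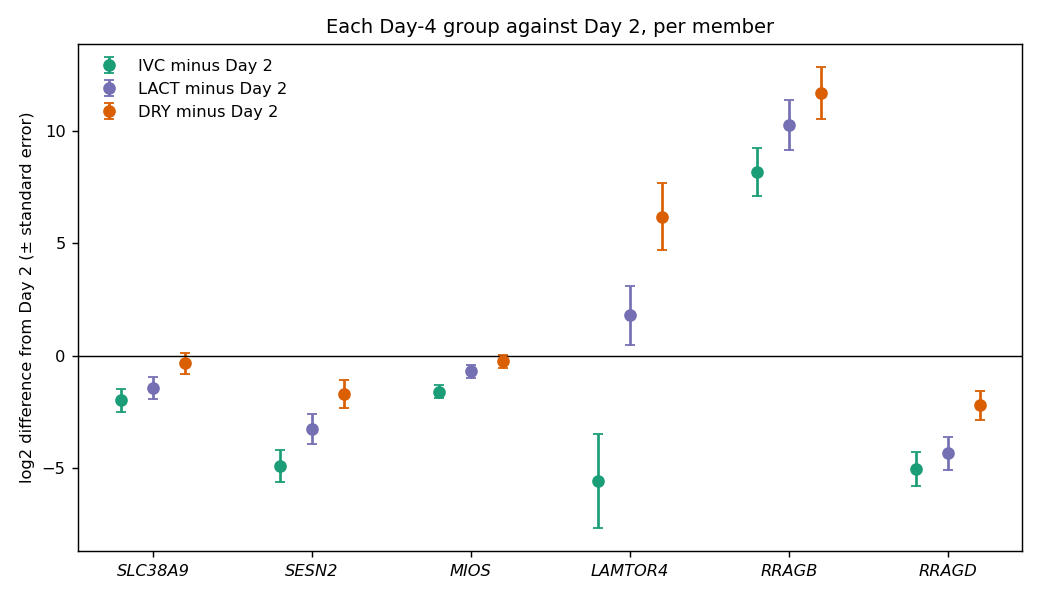
Log2 difference of each Day-4 group from Day 2 with its standard error, from the fit on 14 libraries; the fitted values of RRAGB in all groups and of LAMTOR4 in IVC depend on the prior count, because one side is under 3 counts. SLC38A9, SESN2, MIOS and RRAGD lie below 0 in all 3 groups, RRAGB above 0 in all 3, and LAMTOR4 on both sides.

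The comparisons of single Day-4 groups with Day 2 share the Day-2 libraries, and the place of each group relative to the others was fixed by the selection. Side by side, the log2 differences from Day 2 were -1.99 in IVC, -1.46 in LACT and -0.33 in DRY for SLC38A9 (standard errors 0.50, 0.49 and 0.47). For SESN2 they were -4.91, -3.27 and -1.72 (0.73, 0.66 and 0.61). For MIOS they were -1.60, -0.70 and -0.25 (0.30, 0.29 and 0.29), and for RRAGD -5.05, -4.36 and -2.22 (0.77, 0.74 and 0.65). SLC38A9 and MIOS in DRY were within 1 standard error of Day 2. These values are with 14 libraries, and the standard errors were larger with 11, such as 0.70 for SLC38A9 in DRY. The median over all genes tested was 0.08 in IVC, 0.17 in LACT and -0.09 in DRY.

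The Day-2 libraries lay wholly above the IVC libraries for 4 of the 6 genes, SLC38A9, SESN2, MIOS and RRAGD, against 26.9% of the genes tested. They lay wholly above the LACT libraries for the same 4 genes, against 26.2%. They lay wholly above the DRY libraries for RRAGD alone, against 26.7%. The reverse, a Day-4 group wholly above Day 2, held for RRAGB alone in IVC and in LACT, against 31.3% and 30.6% of genes, and for RRAGB and LAMTOR4 in DRY, against 26.5%. Taking all Day-4 libraries at once, 1 gene, RRAGD, had every Day-2 library above them, against 19.3%, and 1 gene, RRAGB, had every Day-2 library below them, against 20.4%. Without the 3 middle libraries, 4, 4 and 1 of the 6 genes were wholly higher on Day 2 than in IVC, LACT and DRY, against 27.2%, 27% and 27.6% of genes. Choosing genes with DRY highest and IVC lowest favours low levels in IVC and high levels in DRY. Counts per group are thus a description and carry no evidence of a difference between the groups. As RRAGB passed the filter through Day-4 libraries alone, nothing is read from its place above Day 2.

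Among the Day-4 groups, all 6 genes had every DRY library above every IVC library, 4 had every LACT library above every IVC library, and 3, LAMTOR4, RRAGB and RRAGD, had every DRY library above every LACT library. Over all genes tested these shares were 14%, 16.2% and 13.2%. The group means of all 6 genes stood in the order DRY over LACT over IVC, as those of 16.7% of genes did. The genes were chosen for this order, so the counts carry no evidence of it. Without the 3 middle libraries the last count was 4, with MIOS added, and the share over all genes was 14.3%. The differences in the fit on 14 libraries, DRY against IVC, were 1.66 for SLC38A9, 3.20 for SESN2, 1.36 for MIOS, 3.53 for RRAGB and 2.83 for RRAGD on the log2 scale (standard errors 0.53, 0.69, 0.32, 0.98 and 0.72). For LACT against IVC they were 0.53, 1.64, 0.91, 2.12 and 0.69 (0.52, 0.66, 0.32, 0.92 and 0.68). The differences of SLC38A9 and RRAGD between LACT and IVC were thus about as large as their standard errors. DRY against LACT gave 1.13, 1.55, 0.45, 1.41 and 2.13 (0.52, 0.65, 0.32, 0.90 and 0.70), and 4.395 for LAMTOR4 (1.72). Each of these standard errors was larger with 11 libraries. For DRY against IVC they were then 0.84, 0.97, 0.52, 1.56 and 0.99, in the same gene order. For LACT against IVC they were 0.82, 0.92, 0.52, 1.47 and 0.94. With 11 libraries, DRY against LACT gave 1.14, 1.61, 0.51, 1.46 and 2.20 (0.83, 0.91, 0.51, 1.44 and 0.96). The differences of MIOS and RRAGB were then about as large as their standard errors.

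The 6 genes differed in opposite directions between libraries of DRY, whereas in LACT 5 of them were higher in the same library. Of all genes tested, 47.7% were higher in LACT replicate 2 than in replicate 1. In DRY 46.4% were higher in replicate 2 than in replicate 1, and in IVC 51.7% were higher in replicate 3 than in replicate 2. These directions were not tested. In DRY, replicate 1 was 5.75-fold above replicate 2 for SESN2 and 4.44-fold for RRAGB, whereas replicate 2 was 8.02-fold above replicate 1 for LAMTOR4 and 3.70-fold for SLC38A9. RRAGD and MIOS differed 1.36-fold and 1.11-fold between them, with replicate 1 higher. In LACT, replicate 2 was above replicate 1 for 5 genes, from 1.61-fold for SLC38A9 to 2.71-fold for SESN2, with LAMTOR4 far outside this range at 49.7-fold on 5 reads in replicate 1, and RRAGB was level. In IVC, replicate 3 was above replicate 2 by 9.998-fold for RRAGB, 6.09-fold for RRAGD and 3.62-fold for SESN2, and MIOS and SLC38A9 differed by 1.17-fold and 1.36-fold in opposite directions. Gaps of more than 2-fold were common in these libraries. Of all genes tested, 46.6% differed that much between DRY replicates 1 and 2, and 45.0% between IVC replicates 2 and 3. Between LACT replicates 1 and 2 the share was 43.6%. How common the larger gaps were was not counted.

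**Figure D3:**
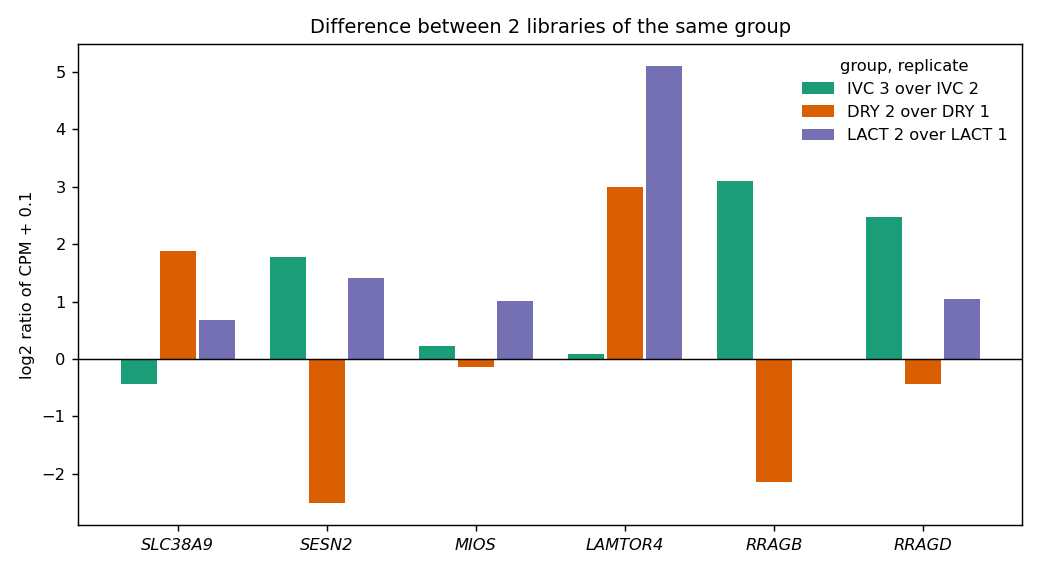
Log2 ratio of CPM + 0.1 between the 2 libraries of each Day-4 group that are not the middle library. The DRY bars point up for SLC38A9 and LAMTOR4 and down for SESN2 and RRAGB, and the LACT bar of LAMTOR4 is the tallest.

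The biological coefficient of variation from the fit, a measure of the spread between replicates beyond counting error, was 0.319 for MIOS, 0.479 for SLC38A9, 0.560 for SESN2, 0.580 for RRAGD, 0.768 for RRAGB and 1.32 for LAMTOR4. The median over all genes tested was 0.741. Thus 9.54% of the genes had a smaller value than MIOS, whereas 81.7% had a smaller value than LAMTOR4.

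Across the 14 libraries 4 of the genes had profiles like each other, and RRAGB and LAMTOR4 each differed from them. Pearson's r of log2(CPM + 1) was 0.73 to 0.92 for the 6 pairs among SLC38A9, SESN2, MIOS and RRAGD, and highest for RRAGD with SESN2. RRAGB had r between -0.42 and -0.14 with these 4 genes and 0.64 with LAMTOR4. LAMTOR4 had r between 0.08 and 0.44 with them. These values describe libraries that share a day or a group and carry no test.

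The genes most like each member were sought by the same r over the 14 libraries. The tables used here pair none of them with a symbol, so 4 are given by ID as examples. ENSBTAG00000045275 was most like RRAGB (r = 0.986), with 0.0384 CPM on Day 2, 2.11 in IVC, 42.1 in DRY and 10.6 in LACT. ENSBTAG00000003107 was most like LAMTOR4 (r = 0.963), at 0.154, 0.0133, 43.9 and 3.31 CPM in the same groups. Among Day-4 libraries the reads of both genes were almost confined to the oviduct groups, whereas LAMTOR4 reached 4.21 CPM on Day 2. ENSBTAG00000050200 was most like SESN2 (r = 0.968), at 24.3, 0.546, 4.33 and 2.56 CPM, and ENSBTAG00000000778 most like RRAGD (r = 0.958), at 228, 54.0, 113 and 69.4 CPM. For SLC38A9 and MIOS the highest r was 0.965 and 0.968.

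**Figure D4:**
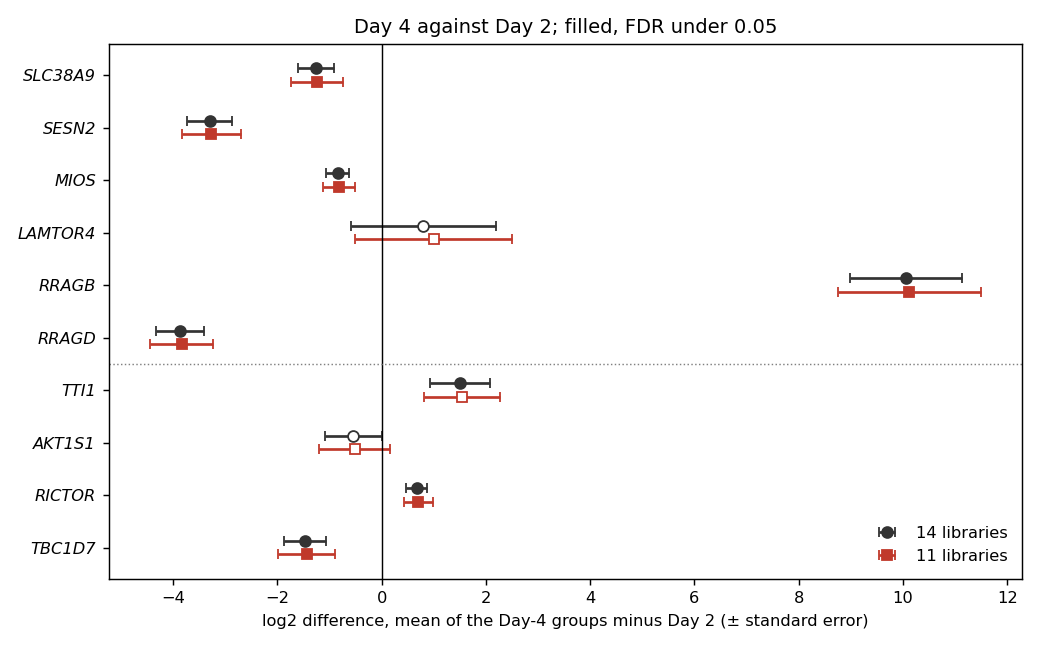
Log2 difference of the mean of the Day-4 groups from Day 2 with its standard error, with 14 libraries (circles) and with 11 (squares). Filled symbols have an FDR under 0.05, and the dotted line parts the 6 genes from 4 other mTOR pathway genes. The fitted values of RRAGB and LAMTOR4 depend on the prior count. The directions are equal in both fits for all 10 genes, and TTI1 passes only with 14 libraries.

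Another 4 mTOR pathway genes that the study pairs with an Ensembl ID were examined, which were chosen on the same Day-4 contrasts and are likewise ordered DRY over LACT over IVC. Against Day 2 they moved in both directions. TBC1D7, a subunit of the TSC complex that inhibits mTORC1, fell by 1.47 on the log2 scale (FDR 0.00556, edgeR's quasi-likelihood test with 14 libraries). RICTOR, the defining subunit of mTORC2, rose by 0.67 (FDR 0.0105). Both also passed with 11 libraries, at FDR of 0.0402 and 0.0455. TTI1, a co-chaperone of mTOR, had a log2 difference of 1.496 that passed with 14 libraries (FDR 0.0344) and not with 11 (FDR 0.0915). AKT1S1, an inhibitor that binds raptor, had -0.54 and did not pass with 14 libraries (FDR 0.393) or with 11 (FDR 0.540).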

How the data were processed

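RNA-seq was carried out by the authors on 14 pools of embryos. The authors deposited read counts per Ensembl gene, described as made with Trimmomatic, STAR 2.7.0b on bosTau 9 and featureCounts of Subread 2.0.3. The strand setting and annotation release are not given in the sources used here. Groups and replicate numbers came from the sample titles.

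Counts were analysed with edgeR 4.0.16 in R 4.3.3. A gene was kept where 3 or more libraries reached 1 CPM, TMM factors were applied, and a robust quasi-likelihood model with 1 coefficient per group was fitted. The Day-4 mean weights the 3 groups equally on the log2 scale. Each standard error is the size of the log2 difference over the root of its quasi-likelihood F statistic, and is approximate. Where a fitted difference depends on the prior count, so does its standard error. A fold against libraries at or under 3 counts was computed against 3 counts per library and is a lower bound. DESeq2 1.42.0 served as an alternative.

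The members and gene lists were chosen with earlier results of these data known. Named are the 6 members, 4 other mTOR genes that the study pairs with an ID, and examples of genes most alike by r, limited to 4 for want of symbols. A further gene of the study's set is not reported here. Of 93 symbols in the gene and marker lists, 8 could be paired with an ID, of which 6 are the members and the other 2 are among these 4. The RefSeq gene table used, of 37063 rows, has an Ensembl ID in 0 rows. Counts over the wider pathway, marker checks, levels per length and sequences are therefore not given. Between libraries of equal replicate number, the correlation of deviations from the group mean was between -0.05 and 0.10 over 18 pairs, and no label links them.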

Additional observations from a re-analysis of the deposited data

Results flagged for a closer look

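On Day 2, RRAGB had 0.0312 CPM in replicate 3 and 0 in the other 4 libraries, which set this library apart from its group. The value is a single read, under the limit of 3 counts. It was the only such case among the 10 genes examined in the 5 Day-2 libraries. The rule divides the gap to the next library by the range, so any read beside 0 in all others is flagged. The share of about 5% of groups set apart by chance does not apply to such counts. Groups of 3 libraries were not examined in this way.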

How the results depend on the processing

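The counts of 4 genes lower and 1 gene higher on Day 4 were the same with DESeq2's size factors, no filter on low counts, edgeR's likelihood ratio test on weighted observations, the Wald test of DESeq2, 11 libraries, the 10 genes of highest counts left out, an FDR under 0.01, and each of the 14 libraries left out in turn (1 to 1 higher and 4 to 4 lower). With at least 10 counts in every library, RRAGB and LAMTOR4 were not tested, and the count of higher genes was 0. The higher gene was RRAGB wherever it was tested, and nothing is read from its count, since a difference was built in. The FDR under 0.01 was set on all 14 libraries. With 11, SLC38A9 and MIOS were over it, at 0.0493 and 0.0398 (edgeR's quasi-likelihood test). With the replicate number as a block the counts were 1 and 4, so that no call changed; 1 of 18 pairs of equally numbered libraries had a correlation over 0.1. DESeq2's size factors moved the median log2 difference of all genes from Day 2 from -0.03 to 0.12, and the block moved it to 0.21. Without Day-2 replicate 3, which held the only RRAGB read of that day, the fitted RRAGB difference rose from 10.06 to 11.31, and without Day-2 replicate 2 that of LAMTOR4, which passed in no setting, from 0.80 to 1.57. Between Day-4 groups no difference changed direction. Some moved by over 1.5 times in fold. Without IVC replicate 3, RRAGB and RRAGD were 4.37 and 3.52 for DRY over IVC, and 2.96 and 1.38 for LACT over IVC. Without DRY replicate 1, RRAGB and SESN2 were 2.92 and 2.51 for DRY over IVC, and 0.80 and 0.87 for DRY over LACT. LAMTOR4, DRY over LACT, was 3.72 without DRY replicate 2 and 5.49 without LACT replicate 2, and its fitted differences from IVC, which depend on the prior count, also moved. Those of MIOS moved beyond the spread between replicates without LACT replicate 2, to 0.58 between LACT and IVC and 0.75 between DRY and LACT. The planned counts over a wider list of amino acid sensing genes were not run, for want of paired symbols. The 3 libraries per Day-4 group, of which 1 lies near the mean of the others, limit every value between those groups.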
